A study of Mus musculus with 4 samples.

Results

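The circadian clock of NKT cells from the small intestinal lamina propria (SI-LP) was examined through 10 genes, chosen by name because they form the core transcriptional loops of the mammalian clock and its best known output. They are *Arntl* (which encodes BMAL1), *Clock*, *Per1*, *Per2*, *Per3*, *Cry1*, *Cry2*, *Nr1d1* (REV-ERBα), *Nr1d2* (REV-ERBβ) and *Dbp*, and they make up 10 of the 25239 genes in the deposited table. Of these 10 genes, 9 had at least 10 counts in at least 2 of the 4 libraries and were tested, as were 11689 genes in all, and 8 had at least 10 counts in every library. *Dbp* did not pass this filter, and *Per3* passed it with 6 counts in one of the libraries. *Per1* was the most abundant of these 10 genes in every library and *Nr1d2* lay between it and *Arntl*. *Per2*, *Per3* and *Dbp* had the lowest mean levels, at mean percentiles of 12.8 to 17.8 among the genes tested, although *Dbp* reached 42.7 in replicate 3. *Arntl*, *Per1* and *Nr1d2* varied between libraries together with the markers of T cells, and *Nr1d1*, *Clock*, *Cry2* and *Per2* did not.

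The 4 bulk RNA-seq libraries were made from NKT cells of the small intestine, a kind of T lymphocyte whose receptor sees lipids held by CD1d, of WT C57BL/6Jax mice. The mice of the study were males and females 7 to 10 weeks old, and for the sort of intestinal NKT cells they received an anti-ARTC2 nanobody shortly before the tissue was taken. Cells were sorted as TCRβ+ and CD1d-tet-PBS-57+, and negative for a dead cell dye, B220, CD11b, CD11c and CD8. The libraries came from 2 experiments, with replicates 3 and 4 in the first and replicates 1 and 2 in the second, and they all belong to a single condition without transgene or deletion. The time of day at which the tissue was taken, the number of animals behind a library and the sex of the animals behind each library are not given in the sources used here. Since the sample titles number the replicates but do not say whether each came from separate animals, p-values measure only the spread between these libraries, which may in part be technical.

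The clock runs in nearly every cell of the body, T lymphocytes included. BMAL1 and CLOCK bind as a pair to E-boxes and switch on the *Per* and *Cry* genes, whose proteins return to the nucleus and block the pair that made them. The same pair drives *Nr1d1* and *Nr1d2*, which repress *Arntl* in competition with the activating ROR receptors, and it drives *Dbp*, a transcription factor that acts on D-boxes in many output genes, so that in a rhythmic tissue *Arntl* peaks at about the opposite time of day to *Nr1d1* and *Dbp*.

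These binding letters were looked for on both strands in RefSeq promoters of GRCm38.p6, taken from 250 bases before to 50 bases after each start, where 13 promoters of 9 of the 10 genes were found and *Per2* had no entry. The following stretches are printed 5′ to 3′ on the strand of the gene, with the matching letters in capitals, because these letters are the ones that the factors named above are known to bind. Positions count from the start that the promoter entry is built on, with negative numbers before it. For *Arntl* this is a start a little inside the gene, and the promoter at the gene start itself held 0 matches of the ROR element.
Per1 E-box, positions -166 to -161, plus strand, chr11:69098763-69098808: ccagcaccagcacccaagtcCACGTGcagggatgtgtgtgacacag
Cry1 E-box, positions -60 to -55, minus strand, chr10:85185089-85185134: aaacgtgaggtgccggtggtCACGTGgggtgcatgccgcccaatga
Nr1d1 variant E-box, positions -28 to -23, minus strand, chr11:98775380-98775425: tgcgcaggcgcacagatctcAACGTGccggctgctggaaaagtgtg
Cry2 variant E-box, positions -166 to -161, minus strand, chr2:92434210-92434255: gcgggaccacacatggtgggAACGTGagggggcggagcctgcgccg
Arntl ROR element, positions 29 to 37, plus strand, chr7:113207529-113207557: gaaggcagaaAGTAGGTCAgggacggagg
Per3 D-box, positions -205 to -198, minus strand, chr4:151044843-151044890: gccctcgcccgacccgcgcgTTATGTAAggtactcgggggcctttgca

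The E-box CACGTG was thus found in 2 of the 13 promoters (*Per1* and *Cry1*), against 7.15% of all 32817 promoters. The variant E-box CACGTT, which reads AACGTG on the other strand, was found in 3 of the 13 (*Cry1*, *Cry2* and *Nr1d1*), against 4.69% of all promoters, and in *Cry1* it lay at positions -79 to -74, just upstream of the E-box. The D-box TTANGTAA was found in 1 of the 13, that of *Per3*, in 2 copies, the other of them at positions -158 to -151, against 2.32% of promoters. The ROR element ANTAGGTCA was found in 1 of the 13, that of *Arntl*, against 0.661% of promoters. The other form of this element, ANTGGGTCA, and the cAMP response element TGACGTCA were found in 0 of the 13, against 0.792% and 1.79% of promoters. A match is a description of the letters in these windows, and clock sites farther away were not searched.

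Total counts on genes ran from 3882803 to 8732858 per library, and the floor of 3 counts corresponded to 0.287 to 0.753 CPM, where CPM is the count scaled to a common library size with TMM factors. The ribosomal precursor *Rn45s* took 7.36% to 28.1% of the counts, with higher shares in the first experiment. TMM factors, from edgeR, are little moved by a few very abundant genes, and levels are given as CPM for comparisons between libraries and as TPM, per transcript length, for comparisons between genes. The T cell markers (7 genes, such as *Cd3e*) had shares of 0.303%, 0.123%, 0.375% and 0.178% in replicates 1 to 4, and 0 of these 7 genes were at 0 in any library. The epithelial markers (21 genes, such as *Epcam*) took 0.0966%, 1.22%, 0.0196% and 2.99%. The markers of plasma and B cells (10 genes) took 0.660% and 0.845% in the second experiment and 0.0114% and 0.0387% in the first, and the myeloid markers (8 genes) took between 0.00266% and 0.0165%. *Cd8a*, which the sort excludes, had 0, 12, 1 and 1 counts. Replicates 2 and 4 thus held more epithelial and less T cell RNA than replicates 1 and 3 of the same experiments, and in such bulk samples fewer cells of a type and less RNA per cell cannot be told apart. The 10 clock genes together took 0.0659%, 0.0598%, 0.0727% and 0.0472% of the counts.

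The levels of the 10 genes spanned almost 2 orders of magnitude. *Per1* had a mean of 157 ± 93.6 TPM (SD, n = 4), *Nr1d2* 70.1 ± 29.1, *Arntl* 44.4 ± 22.4 and *Cry1* 32.9 ± 9.42. *Clock* followed with 27.99 ± 19.8 TPM, *Nr1d1* with 24.5 ± 18.4 and *Cry2* with 8.19 ± 6.44. *Dbp*, *Per2* and *Per3* closed the order with 3.82 ± 5.30, 3.63 ± 3.30 and 1.93 ± 0.956 TPM. Among the genes tested, *Per1* stood at a mean percentile of 88.7, *Nr1d2* at 77.5 and *Arntl* at 65.7, while *Per2* stood at 17.8 and *Per3* at 12.8. The median clock gene stood at the percentile 53.0, close to the middle of all genes tested.

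Most neighbours in this order did not differ beyond their spread. Of the 9 steps in the order, 3 went the same way in all 4 libraries, and these were *Per1* above *Nr1d2* (log2 ratio of TPM 1.05 ± 0.50, SD, n = 4), *Nr1d2* above *Arntl* (0.70 ± 0.25) and *Nr1d1* above *Cry2* (1.46 ± 0.53). *Arntl* and *Cry1* differed by 0.32 ± 0.44, *Cry1* and *Clock* by 0.42 ± 1.27, and *Clock* and *Nr1d1* by 0.34 ± 1.13, so these 4 genes of the middle could not be ranked. The bottom of the order was as open, with *Per2* above *Per3* in 2 of 4 libraries and *Dbp* above *Per2* in 2 of 4.

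**Figure D1:**
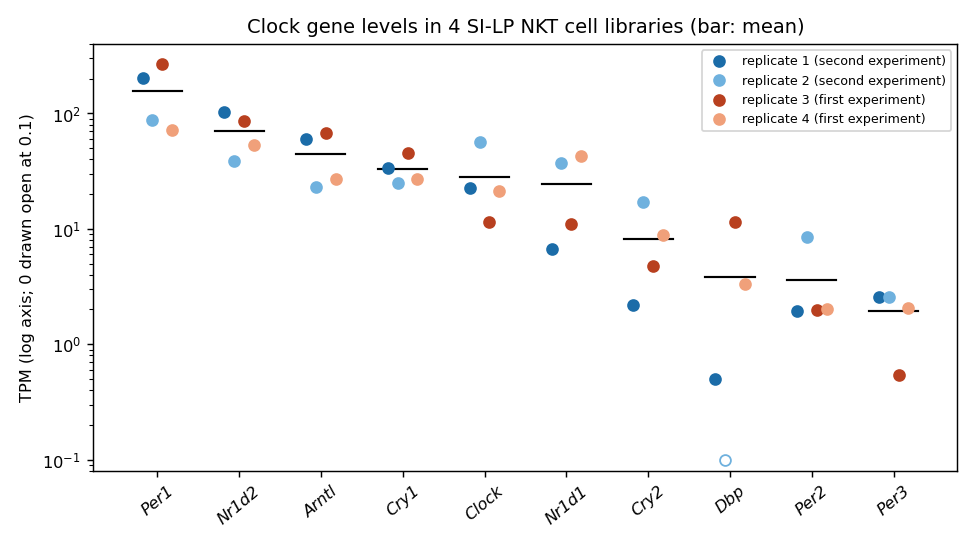
Level of each clock gene in TPM (log axis) in the 4 libraries of SI-LP NKT cells, with blue points for the second experiment, red points for the first and a bar at the mean. *Per1* was highest with a mean of 157 TPM, and the points of each gene overlap those of its neighbours in the order.

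The activators of the loop are *Arntl* and *Clock*, whose products work as a pair, but the pair of genes did not move together. *Arntl* (chr7:113207465-113314126, GRCm38) had 58.5, 22.1, 79.9 and 32.1 CPM in replicates 1 to 4. *Arntl* was therefore high in replicates 1 and 3 and low in replicates 2 and 4, and the experiments overlapped. *Clock* (chr5:76209868-76304792) had 74.4, 183, 46.7 and 84.6 CPM, with its highest value in the library where *Arntl* was lowest and its lowest value where *Arntl* was highest. The relatives of these genes were weaker in every library. *Arntl2* had 0 counts in all 4 libraries, which is below the floor of 3 counts (0.287 to 0.753 CPM). *Npas2*, which can replace *Clock*, had 6, 51, 50 and 120 counts, with a log2 ratio of *Clock* to *Npas2* of 4.39, 3.81, 0.77 and 0.24.

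The 3 *Per* genes, which encode the inhibitors that pair with the CRY proteins, were expressed very unequally. *Per1* (chr11:69098949-69109957) had 317, 134, 512 and 136 CPM in replicates 1 to 4, with the 2 high values again in replicates 1 and 3. *Per2* (chr1:91415982-91459328) had 3.74, 16.3, 4.69 and 4.77 CPM, so that 3 libraries lay close together and replicate 2 stood above them. *Per3* (chr4:151003655-151044665) had 5.13, 5.08, 1.34 and 5.02 CPM, with replicate 3 below the rest, where the value rests on 6 counts (95% Poisson interval 0.492 to 2.92 CPM, counting error only). Within a library *Per1* exceeded *Per2* by 6.38, 3.28, 6.76 and 4.84 on the log2 scale of TPM and *Per3* by 6.06, 4.84, 8.0 and 4.82. *Per2* and *Per3* had no fixed order, with a log2 ratio of 0.61 ± 0.93.

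*Per1* is also known as a gene that responds within the hour to cAMP signalling, to other immediate early stimuli and to glucocorticoids, so values for such genes are given beside it. The immediate early genes (8 genes, such as *Fos*) had a share of 0.257%, 0.402%, 0.197% and 0.328% in replicates 1 to 4 and were lowest in the libraries where *Per1* was highest. *Tsc22d3*, which glucocorticoids induce, had 56.5, 39.4, 152 and 81.8 CPM and shared its highest library, replicate 3, with *Per1*. Their part in the level of *Per1* was not tested.

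The cryptochromes *Cry1* and *Cry2*, which hold the BMAL1-CLOCK pair inactive, differed in level and in pattern. *Cry1* (chr10:85131700-85185054) was the steadiest of the clock genes on the TMM scale, with 33.9, 24.5, 56.3 and 32.9 CPM and an SD of 0.49 in log2 CPM against a median SD of 1.02 over all genes tested. *Cry2* (chr2:92403647-92434069) had 2.91, 22.02, 7.81 and 14.3 CPM, so it was high in replicates 2 and 4, where *Cry1* was not. *Cry1* lay above *Cry2* in all 4 libraries, but by a log2 ratio of 3.68 and 3.13 in replicates 1 and 3, against 0.55 and 1.56 in the other pair. *D930015M05Rik*, which shares 3.72% of the exon bases of *Cry2* on the opposite strand, had 3, 0, 13 and 0 counts.

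The REV-ERB receptors *Nr1d1* and *Nr1d2*, the repressors of *Arntl*, went opposite ways. *Nr1d2* (chr14:18204056-18239106) had 158, 58.8, 162 and 99.6 CPM and was high in replicates 1 and 3. *Nr1d1* (chr11:98767932-98775377) had 6.10, 33.5, 12.3 and 48.2 CPM and was high in replicates 2 and 4, with 7.90 times as much in the highest library as in the lowest. The log2 ratio of *Nr1d1* to *Nr1d2* was therefore -3.85 and -2.92 in replicates 1 and 3, against -0.06 and -0.30 in replicates 2 and 4. By these values *Nr1d2* was above *Nr1d1*, but by little in the libraries with more epithelial RNA. The order in replicate 2 is not firm, because the length of *Nr1d1* used for TPM includes exon bases shared with another gene.

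Exons of *Nr1d1* overlap those of *Thra*, the thyroid hormone receptor α gene on the opposite strand, by 263 bases, or 9.51% of the exon bases of *Nr1d1*. *Thra* had 1.94, 22.9, 17.0 and 39.4 CPM and, like *Nr1d1*, was highest in replicate 4 and lowest in replicate 1. Reads were counted without regard to strand, and by the default of the counting program a read that touches both genes is counted for neither, so that the levels of both are uncertain by that stretch.

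*Dbp* (chr7:45705247-45710203), the output gene, had 2, 0, 35 and 9 counts in replicates 1 to 4, or 0.277, 0, 7.81 and 2.26 CPM. Both libraries of the first experiment lay above both of the second, but the counts were too few for the gene to pass the filter, and it was not tested. A count of 2 in replicate 1 carries a 95% Poisson interval of 0.0336 to 1.001 CPM, and the 9 counts of replicate 4 one of 1.03 to 4.29 CPM, so the values of replicates 1 and 4 were separated by little more than counting error. *Dbp* also shares 539 bases, 32.1% of its exon bases, with *Sphk2*, a sphingosine kinase gene on the opposite strand, which had 468, 480, 171 and 171 counts. Reads in this stretch are by default counted for neither gene, so the level of *Dbp* may be understated.

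Ratios within a library do not depend on the scaling between libraries and were compared for 9 pairs of related genes and 8 pairs of clock components. Of the related pairs, 6 of 9 kept the same order in all 4 libraries, and of the component pairs 5 of 8. *Per1* to *Per2* stands in both lists and is counted in both. *Nr1d1* to *Nr1d2* is counted among the 6, though its order in replicate 2 is not firm. The exact sign-flip permutation test, two-sided, gave p = 0.13 for each pair that kept its order, the smallest value that 4 libraries allow, with adjusted p-values of 0.188 over the related pairs and 0.200 over the component pairs, so 0 of them could reach the threshold of 0.05. The narrowest ratio was that of *Arntl* to *Per1*, with a log2 ratio of -1.74, -1.89, -1.99 and -1.39 (mean -1.75 ± 0.26, SD, n = 4). *Clock* to *Per2* was almost as narrow, at 2.82 ± 0.44.

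The ratio that reads the phase of a rhythmic tissue most directly, *Arntl* to *Nr1d1*, was not stable. It was 3.09 and 2.57 in replicates 1 and 3, where *Arntl* was the higher gene, and -0.67 and -0.66 in replicates 2 and 4, where *Nr1d1* was higher. *Cry1* to *Nr1d1* did the same, with 2.27, -0.57, 2.02 and -0.67. *Arntl* to *Dbp* was 2.50 and 2.85 in replicates 3 and 4, and it has no firm value in replicates 1 and 2, where *Dbp* had 2 and 0 counts and the 0.5 added sets the ratio. With no time of harvest given, a phase of the clock was not read from these ratios.

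**Figure D2:**
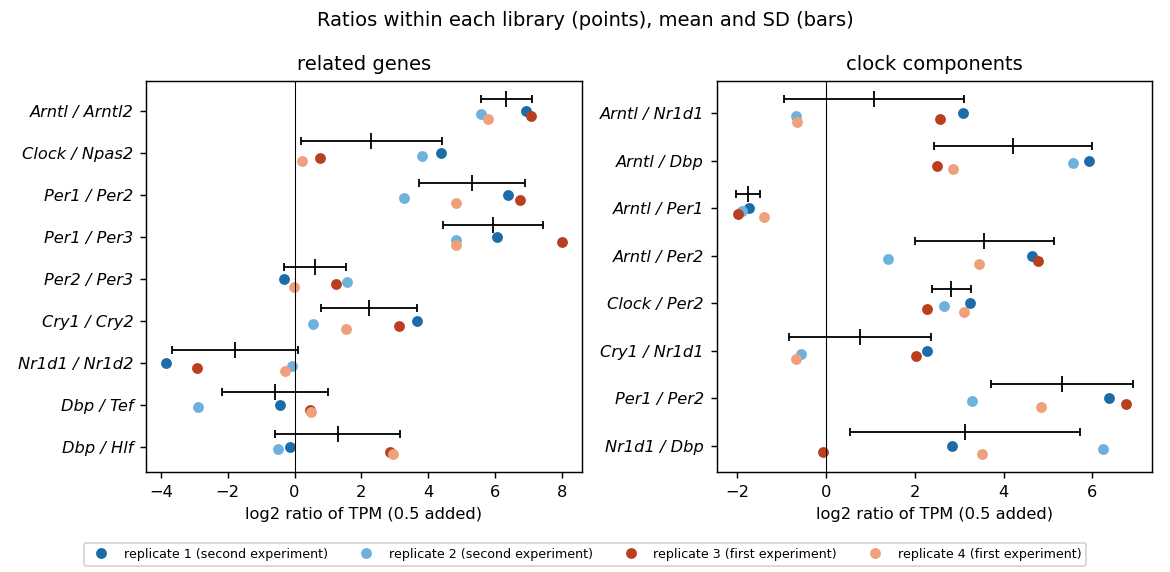
Log2 ratio of TPM (0.5 added) between related genes (left) and between clock components (right), with a point for each library (blue, the second experiment, red, the first) and the mean and SD over the 4 libraries as bars. *Arntl* to *Per1* stayed between -1.99 and -1.39, whereas *Arntl* to *Nr1d1* crossed 0 within each experiment.

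Between the experiments, the only labelled difference among the libraries, 0 of the 9 clock genes tested passed an adjusted p of 0.05 (edgeR, quasi-likelihood, Benjamini-Hochberg over all 11689 genes), against 0% of all genes. At an unadjusted p under 0.05 the count was 0 of 9, against 2.12% of all genes, and DESeq2 called 0 of the 9 genes and 41 of all genes. For *Per3* DESeq2 gave no adjusted p, so that gene could not be called by it. Closest to the threshold was *Clock*, which had a mean of 129 CPM in the second experiment and 65.6 CPM in the first (log2 difference 0.97, SE 0.71, adjusted p = 0.9997, edgeR). *Per2* had the largest difference among the 9 genes, 1.08 with an SE of 1.62, and of its 4 values only that of replicate 2 was high. The median absolute log2 difference was 0.61 for the 9 genes and 0.67 for all genes tested.

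Counts of genes whose experiments did not overlap gave a like picture. Among the 9 genes, 1 had both libraries of the second experiment above both of the first, against 14.7% of all genes tested, and this was *Per3*, where 5.08 and 5.13 CPM stood against 1.34 and 5.02. In the other direction the count was 0 of 9, against 14.4% of all genes tested.

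Within each experiment, the library with more epithelial RNA was compared with the other, that is replicate 4 with replicate 3 and replicate 2 with replicate 1. Each of these sets 1 library against 1 library, so no test was made. The T cell markers themselves had median log2 differences of -1.47 and -1.18, and 5 of these 7 genes were lower by more than 1 log2 unit in both experiments. Of the epithelial markers, 17 of 21 were higher by that much in both.

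*Nr1d1* was higher by 1.95 on the log2 scale in the first experiment and by 2.40 in the second, and it was the only one of the 9 genes that was higher by more than 1 log2 unit in both, against 19.0% of all genes tested. The differences of *Nr1d1* were 3.31 and 3.93 with scaling to the T cell markers, a scale on which the median of all genes tested was itself at 1.44 and 1.65. *Arntl*, with differences of -1.31 and -1.39, and *Per1*, with -1.91 and -1.24, were lower by more than 1 unit in both on the TMM scale, which makes 2 of 9 against 8.08% of all genes tested. *Nr1d2* had differences of -0.70 and -1.42 and *Cry1* of -0.77 and -0.46, so both were lower in both experiments on this scale, but with scaling to the T cell markers they were at 0.70 and 0.13 and at 0.62 and 1.08. *Clock*, with 0.85 and 1.3, and *Cry2*, with 0.85 and 2.80, were higher in both experiments, while *Per2* (0.02 and 2.03) and *Per3* (1.69 and -0.01) moved in only a single experiment each. Median-of-ratios factors left the same 3 genes past 1 unit in both experiments. With scaling by library size alone the count was also 3 but the genes were others, since *Arntl* (-0.98 and -1.13) and *Per1* (-1.58 and -0.98) stayed lower without passing 1 unit in both, and *Clock* (1.18 and 1.56) and *Cry2* (1.16 and 3.05) passed beside *Nr1d1*. With scaling to the T cell markers *Arntl* was at 0.09 and 0.15 and *Per1* at -0.51 and 0.32, so neither was lower in both by more than 1 unit relative to T cell RNA.

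**Figure D3:**
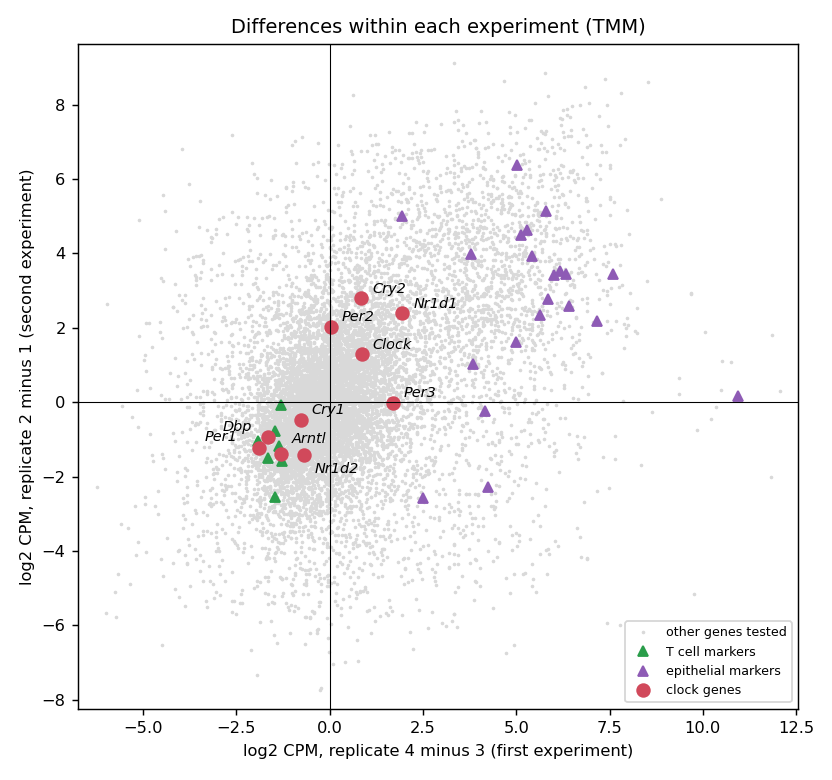
Log2 difference in CPM (TMM) between replicates 4 and 3 of the first experiment (horizontal) and between replicates 2 and 1 of the second (vertical), for the clock genes (red circles), T cell markers (green triangles), epithelial markers (purple triangles) and the other genes tested (grey). *Per1*, *Arntl* and *Nr1d2* lie beside the T cell markers at the lower left, with *Cry1* nearer to 0 (on this scale, while *Arntl*, *Nr1d2* and *Cry1* turn positive with scaling to those markers). *Dbp* is also drawn there, but its vertical position rests on 2 and 0 counts and moves from -0.93 to -2.21 with a prior count of 0.5. *Nr1d1* lies on the side of the epithelial markers at 1.95 and 2.40.

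Because the share of T cell RNA differed between libraries, the clock genes were also scaled to the summed counts of the 7 T cell markers. This scaling moved the median log2 difference of all genes tested within the experiments from 0.08 and 0.13 to 1.44 and 1.65, so values on this scale are best read against that shift. *Arntl* then stood at 5.44, 5.59, 5.29 and 5.38 log2 CPM in replicates 1 to 4, with an SD of 0.126 in place of 0.83, and 0.137% of the genes tested had a smaller SD. *Per1* had an SD of 0.304 and *Nr1d2* one of 0.332, which 1.56% and 2.00% of genes tested fell below, whereas *Cry1* had an SD of 0.512, no smaller than its 0.493 on the TMM scale. The median SD of all genes tested was 1.38 on this scale and 1.02 on the TMM scale. *Arntl* thus kept a nearly constant ratio to the T cell markers, with a range of 0.30 log2 units, over libraries in which these markers themselves changed by more than 2-fold. *Per1* and *Nr1d2* varied somewhat more on this scale, with ranges of 0.73 and 0.70.

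Of the other clock genes, 5 spread more on this scale than on the TMM scale, and *Dbp* spread less (SD 1.90 in place of 2.13). *Nr1d1* had an SD of 2.10, *Cry2* of 1.98, *Clock* and *Per2* of 1.73 and *Per3* of 1.54, all above the median of the genes tested. With this scaling 5 of the 9 genes (*Clock*, *Per2*, *Per3*, *Cry2* and *Nr1d1*) were higher by more than 1 log2 unit in replicate 4 than in 3 and in replicate 2 than in 1, against 46.2% of all genes tested, and 0 of 9 were lower, against 1.0%. A share of 5 in 9 lies near the share of all genes, so it is no result about clock genes. With the Cd3 chain genes alone as the scale, an alternative chosen after the data were seen, the SD of *Arntl* was 0.091, that of *Per1* 0.233 and that of *Nr1d2* 0.274. Whether the RNA of *Nr1d1*, *Clock*, *Cry2* and *Per2* came in part from epithelial cells was not tested.

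**Figure D4:**
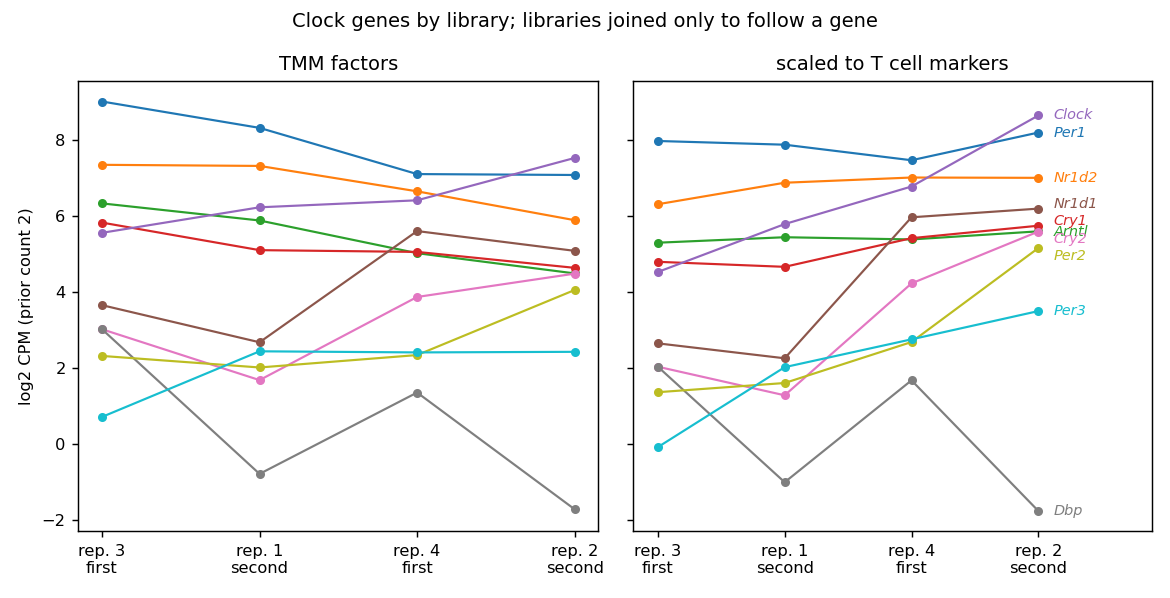
Log2 CPM of each clock gene in the 4 libraries (replicates 3 and 1 with less epithelial RNA at the left, 4 and 2 with more at the right) with TMM factors and with scaling to the 7 T cell markers, where lines join the points of a gene only to follow it. *Arntl* goes from a spread with an SD of 0.83 to a nearly flat line with an SD of 0.126, while *Nr1d1*, *Cry2*, *Clock* and *Per2* climb.

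The genes whose pattern over the 4 libraries came closest to that of a clock gene were taken by the root mean square difference of centred log2 CPM among 11680 tested genes. For *Arntl* these were *Atp8a2* (difference 0.024), *Tob2* (0.049), which encodes an antiproliferative protein, and *Notch1* (0.053), a receptor that T cells use in development, and 219 genes, 1.88%, came within 0.25. *Tob2* ran at 823, 299, 1058 and 465 CPM, with the 2 high values in replicates 1 and 3 as for *Arntl*. For *Per1* these were *Kcnab2* (0.046), *Cd3g* (0.073), which is a chain of the T cell receptor complex and one of the T cell markers, and *Gpr132* (0.099), with 0.822% of genes within 0.25. For *Nr1d1* they were *Nudt5* (0.062), *Plec* (0.116), which encodes the cytoskeletal linker plectin, and *Tradd* (0.117), an adaptor of TNF receptors, with 0.360% of genes within 0.25. *Plec* had 31.2, 179, 74.6 and 236 CPM and was high in replicates 2 and 4. Among the clock genes themselves the closest patterns were those of *Arntl* and *Nr1d2* (0.222) and of *Arntl* and *Per1* (0.228). With 4 libraries such likeness is shared by many genes and is a description.

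A further 28 genes around the clock loop were read from a list of its other activators, repressors, modifying enzymes and outputs. Of these, 25 were tested, 18 had at least 10 counts in every library, and 0 were called between the experiments by edgeR at an adjusted p of 0.05. At an unadjusted p under 0.05 the count was 1 of 25, against 2.12% of all genes tested, and a single gene is no result about the list. This was *Bhlhe41*, a repressor with 32 and 73 counts in the second experiment and 0 and 0 in the first. *Arntl2*, *Rorb* and *Hlf* were not tested.

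Among the activators, *Rora*, the receptor that switches *Arntl* on and that lymphocytes of mucosal tissues express, had 1571, 348, 1185 and 304 CPM in replicates 1 to 4. *Rora* was thus high in the same libraries as *Arntl* and *Per1*, and with a mean of 192 ± 149 TPM (SD, n = 4) it stood in the same range as *Per1*. *Rorb* had 1 count in all libraries together.

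Among the other repressors, *Bhlhe40* (DEC1), which competes with BMAL1 and CLOCK for E-boxes and is known as a regulator of cytokines in T cells, was the most abundant of all the clock genes read here. It had 1220, 355, 1786 and 847 CPM, and its mean of 903 ± 480 TPM put it at a mean percentile of 98.4. *Cipc*, which binds CLOCK, had 65.3 ± 33.5 CPM, and *Nfil3*, which represses genes through D-boxes, had 11.4, 40.5, 21.0 and 16.6 CPM with its highest value in replicate 2. *Bhlhe41*, *Ciart* and *Timeless* had under 10 counts in at least 1 library, so 3 of these 6 repressors were measured in every library.

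All 10 kinases and ubiquitin ligases of the list had at least 10 counts in every library, and several of them were steady. *Gsk3b* had 322, 406, 369 and 273 CPM and *Csnk1d*, the casein kinase that marks PER proteins for decay, had 136, 134, 163 and 92.8. *Fbxl21* was weaker and less even, with 7.48, 1.72, 16.3 and 14.3 CPM. *Csnk1e* (42.5 ± 17.7 CPM), *Csnk2a1* (75.5 ± 35.5), *Btrc* (38.9 ± 21.7), *Fbxw11* (83.3 ± 46.1), *Prkaa1* (72.5 ± 54.1) and the deubiquitinase *Usp2* (10.01 ± 9.36) were also measured in every library.

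Apart from *Tsc22d3*, the outputs of the clock had mean percentiles below 66.0, the median of the kinases and ubiquitin ligases. The relatives of *Dbp* were low as well, with 9, 48, 66 and 16 counts for *Tef* and 8, 4, 12 and 0 for *Hlf*. Their mean levels were 3.59 TPM for *Tef* and 0.490 TPM for *Hlf*, against 3.82 TPM for *Dbp*. *Dbp* exceeded *Tef* in 2 of 4 libraries. Of the 7 outputs, 3 had at least 10 counts in every library. These were *Tsc22d3* (82.4 ± 49.6 CPM, mean percentile 75.7), *Nampt*, the enzyme that limits NAD+ synthesis (37.8 ± 12.7 CPM), and *Klf9* (35.0 ± 15.8 CPM). *Klf9* had 15.0, 42.7, 31.0 and 51.4 CPM and was higher in replicates 2 and 4 than in 1 and 3 of the same experiments, as *Nr1d1* was. *Wee1* had 2, 243, 23 and 35 counts and *Noct* had 23, 13, 6 and 42.

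**Figure D5:**
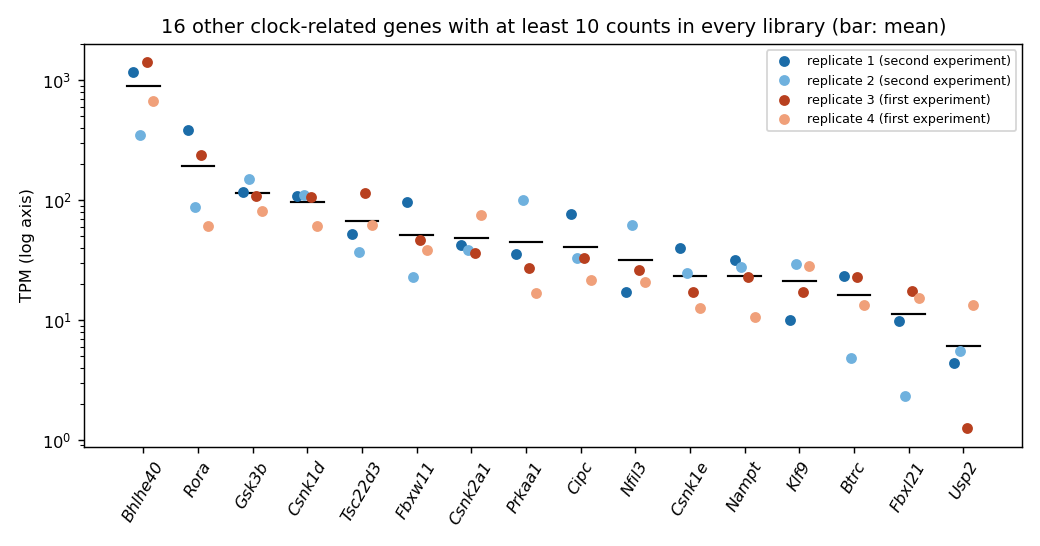
Level in TPM (log axis) of 16 of the 18 other genes of the clock pathway with at least 10 counts in every library, with blue points for the second experiment, red points for the first and a bar at the mean. *Bhlhe40* and *Rora* lead with means of 903 and 192 TPM, and the kinases *Gsk3b* and *Csnk1d* show some of the narrowest spreads.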

How the data were processed

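Bulk RNA-seq was analysed in 4 libraries of SI-LP NKT cells, grouped by the sample labels. The authors deposited raw counts per gene, made per the file headers with featureCounts 1.6.4 on read pairs, exons and primary alignments, with no strand option and no option to count reads that overlap several genes. The submitters' processing notes name RSEM, Bowtie2 and featureCounts, and the methods name HISAT2 and GRCm39, whereas the deposited gene positions are those of GRCm38, which all coordinates follow. The labels name a HiSeq and the methods a NovaSeq. The table held 2 further library columns that match no sample label, which were not used.

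Total counts of 3882803 to 8732858 set the precision, and intervals and floors cover counting error only. CPM rests on TMM factors from edgeR, and TPM on the exon lengths in the table. The experiments were compared by the quasi-likelihood test of edgeR, after a filter of 10 counts in 2 or more libraries, with p-values adjusted by Benjamini-Hochberg (threshold 0.05). Log2 CPM used a prior count of 2 and log2 TPM added 0.5. The fit was tested on simulated data. Ratios within libraries were compared with exact sign-flip permutation tests.

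The members, lists and tests were chosen with earlier results of these data known. Named genes were the 10 members, the other clock genes of the list, the 3 genes nearest in pattern to *Arntl*, *Per1* and *Nr1d1*, genes that share exons with a member, and marker lists, and 2 of the other clock genes are not reported here. Heat shock genes (0.241% to 0.509% of counts) and proliferation genes (0.0190% to 0.0765%) were summed as well. Alternatives were DESeq2, other scalings, filters, prior counts and pseudocounts, CPM for TPM, percentiles among other gene sets, a threshold of 0 and leaving out each replicate. Python 3.11.15 was used with matplotlib 3.10.9, pandas 2.3.3, numpy 2.4.6 and scipy 1.17.1, and R 4.3.3 with DESeq2 1.42.0, limma 3.58.1 and edgeR 4.0.16.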

Additional observations from a re-analysis of the deposited data

Results flagged for a closer look

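Among the clock genes, 2 had a library that stood apart from the other 3 by Dixon's criterion for 4 samples. *Per2* had 16.3 CPM in replicate 2 and between 3.74 and 4.77 CPM in the others, so that the gap took up 0.918 of its range. *Per3* had 1.34 CPM in replicate 3, from 6 counts, and between 5.02 and 5.13 CPM in the others, a gap of 0.971 of its range. The criterion flags about 1 in 20 groups by chance, which is 1.75 of the 35 values examined, and 2 were flagged.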

How the results depend on the processing

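The count of clock genes called between the experiments was 0 under edgeR with TMM factors, median-of-ratios factors or library size alone, and under DESeq2. It was also 0 with each other filter, and the same holds for the other clock genes that were tested (25 of 28 with the filter used). DESeq2 gave no adjusted p for *Per3* and for some weak other clock genes. Calls between the experiments were not made with scaling to the T cell markers or to the Cd3 chain genes. The count over all genes moved from 0 to 41 with DESeq2 and to 60 with no filter on low counts, and lay between 0 and 7 when a replicate was left out (7 without replicate 3 and 6 without replicate 4). The median percentile of the clock genes moved from 53.0 to 38.1 among genes with 10 counts in all 4 libraries and to 65.5 among genes with at least 1 count, since these sets hold fewer or more weak genes, and lay between 48.5 and 56.9 without a replicate. The count of clock genes past 1 log2 unit within both experiments, here out of all 10 with *Dbp*, stayed at 3 with library size alone. There *Clock* and *Cry2* took the place of *Arntl* and *Per1*. It moved to 5 with scaling to the T cell markers, where 46.2% of all genes tested were higher and 1.0% lower. The Cd3 chain genes, a scale added after the data were seen, also gave 5. With a threshold of 0 the count was 9, or 4 higher and 5 lower, against 4112 higher and 3498 lower of all 11689 genes tested. The pairs in the same order stayed at 6 and 5, apart from 7 and 6 with CPM and 6 component pairs without replicate 3. Scaling to the T cell markers turned the sign of the differences of *Arntl*, *Nr1d2* and *Cry1* within the experiments. No paired analysis was possible because the labels give a single condition. Depth limits *Dbp*, *Per3* and *Per2*, which rest on 0 to 170 counts a library, and with 2 libraries in each experiment differences of the size seen here were within the spread.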
